A study of Homo sapiens with 9 samples.

Results

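The genes described here are the human genes with a symbol of ZNF followed by a number, which encode zinc finger proteins, as far as their transcripts were detected on every array of the series. Where a gene had several probes, the probe of highest mean signal stood for it. Genes were selected on the detection p of that probe, which had to be under 0.01 on all 9 arrays. The symbol pattern, with 3 symbols left out by the same rule, gave 351 genes with a named probe, and 279 of them passed the detection rule. The rule used the detection values of the arrays and not the difference between groups, but it also removed genes that were near background in 1 group. At the edge of the rule, ZNF416 and ZNF714 had a highest detection p of 0.00909 and were kept. ZNF470, ZNF566 and ZNF607 had 0.0104 on 1 array and were left out. Of the 279 genes, 210 had a detection p of 0 on all arrays.

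Most ZNF genes encode C2H2 proteins, in which a short loop held by a zinc ion reads a few bases of DNA and a row of such loops reads a longer site. The largest class also carries a KRAB domain, which recruits the corepressor TRIM28 (KAP1) and with it histone methylation and heterochromatin, often on transposable elements. Many of these genes arose by tandem duplication and lie in clusters on chromosome 19, while other ZNF genes act as activators, in chromatin complexes or on RNA.

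Total RNA from the HEK293 line, a human embryonic kidney line, was measured on Illumina bead arrays in 3 groups of 3 arrays, which the design text describes as separate experiments. The groups were wild-type cells, cells with an shRNA (a hairpin that lowers its target transcript) against Amot and cells with an shRNA against Yap. Angiomotin (AMOT) is a scaffold of cell junctions that binds YAP, the coactivator that works with TEAD factors at the end of the Hippo pathway, and the series asks which genes depend on each. Titles of the samples speak of knockouts, but AMOT and YAP1 transcripts were still measured in the hairpin groups. By their labels the controls carried no hairpin, so effects of a hairpin vector and of the lowered target cannot be told apart. In RNA from whole cultures, fewer cells that express a gene and less RNA per cell cannot be told apart either.

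Raw median signals ran from 175 to 208 over the 9 arrays. The number of probes with a detection p under 0.05 was 19831 to 20397 in control cells, 20827 to 22187 after AMOT knockdown and 20866 to 21709 after YAP knockdown, so all 6 knockdown arrays lay above all controls. AMOT was 18.7-fold lower in the AMOT knockdown (log2 levels 9.94, 10.05 and 10.21 against 14.33, 14.32 and 14.21, limma adjusted p = 3.8e-08). YAP1 was 3.54-fold lower in the YAP knockdown (8.79, 8.79 and 8.93 against 10.63, 10.71 and 10.64, limma adjusted p = 3.2e-06). AMOT was also 1.49-fold lower in the YAP knockdown, at 13.66, 13.72 and 13.76 (limma adjusted p = 0.0017). YAP1 was not called in the AMOT knockdown (log2 change -0.08). Of 11 marker genes of the HEK293 line, 8 had a named probe and 6 were detected on all arrays, EYA1, NEFM, NEFL, INA, VIM and KRT8. No endothelial marker of 5 had a named probe, and none of the 3 fibroblast markers with a probe was detected on all arrays. Of the hepatocyte markers, APOA1 was detected on all arrays.

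All levels below are normalized log2 signals, in which a step of 1 is a doubling, and each is read only against the same probe on other arrays, since probes bind with different strength. Mean levels of the 279 probes ran from 6.63 to 14.93. The median member level per array was 8.70 to 8.77 in the controls, 8.74 to 8.85 in the AMOT knockdown and 8.69 to 8.73 in the YAP knockdown. The median standard deviation within a group was 0.16, and the median standard error of a difference between groups was 0.13. By position, 114 of the genes lay on chromosome 19, 23 on chromosome 7, 20 on chromosome 16, 15 on chromosome 1 and 12 each on chromosomes 8 and 10.

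When AMOT was lowered, 69 of the 279 ZNF genes rose and 38 fell. The largest rises were those of ZNF83, ZNF467, ZNF85 and ZNF536, each over 3-fold, and the largest falls were those of ZNF326, ZNF174, ZNF185 and ZNF816. Called means a limma adjusted p under 0.05 over all 22375 tested probes. The 107 genes called were 38.4% of the members, against 35.1% of all tested probes and 41.5% of the 9501 named genes with the same detection on all 9 arrays. In direction, 24.7% of the members were called higher and 13.6% lower, against 17.6% and 17.5% of all tested probes. Of the named genes with the same detection, 20.7% were called higher and 20.8% lower. The median log2 change of the members was 0.10, against -0.02 over all tested probes, and 168 of 279 lay above 0. The arrays of the 2 groups did not overlap for 144 members, against 46.4% of all tested probes. A change of at least 2-fold was called upward for 13 members and downward for 6, against 4.24% and 2.13% of all tested probes. The share called was thus between that of all probes and that of well-detected genes. Upward calls outnumbered downward calls by 69 to 38 among the members and by 3931 to 3915 among all probes, and this difference in balance was not tested. The 38 falls were 24 without control array 3, 23 without AMOT array 2 and 19 with the arrays scaled to a common median, which left 49 rises.

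**Figure D1:**
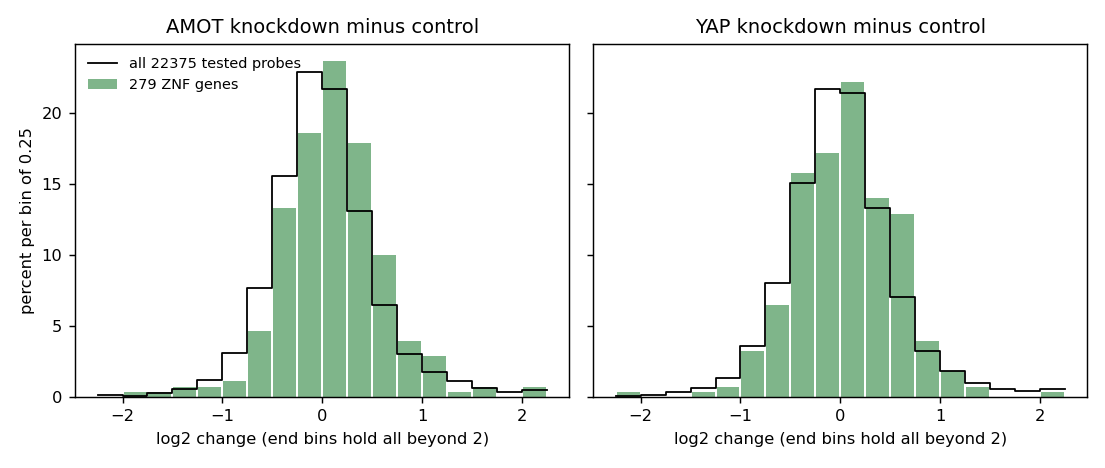
Distribution of log2 changes of the 279 ZNF genes (green bars) and of all 22375 tested probes (black line), in percent per bin of 0.25, for AMOT knockdown minus control (left) and YAP knockdown minus control (right). On the left the green bars stand above the line in the bins from 0 to 1.25 and not in all bins beyond, and the median was 0.10 for the ZNF genes and -0.02 for all probes.

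ZNF83 (chromosome 19, 52612377 to 52690496, GRCh38.p14), a member of the chromosome 19 family, stood at 6.86, 6.99 and 6.73 in control cells, 9.09, 9.26 and 9.25 after AMOT knockdown and 8.08, 8.17 and 7.95 after YAP knockdown. The 3 groups did not overlap, and the order was control, YAP knockdown, AMOT knockdown. Its rise with AMOT lowered was 5.07-fold (log2 change 2.34 with a standard error of 0.11, 3 arrays per group, limma adjusted p = 1.6e-06). Errors given with ± are standard errors of the fit throughout. ZNF467 (chromosome 7, 149764182 to 149776530), whose mouse counterpart favours fat cell over bone cell formation, stood at 7.02, 7.02 and 6.91 in control cells, 9.02, 9.01 and 8.97 after AMOT knockdown and 9.28, 9.46 and 9.29 after YAP knockdown. Both knockdowns lay far above the controls, by 2.02 ± 0.09 with AMOT lowered (limma adjusted p = 1.6e-06).

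ZNF85 (chromosome 19, 20923251 to 20950697), a KRAB gene, gave 7.74, 7.88 and 7.52 in control cells, 9.49, 9.51 and 9.30 after AMOT knockdown and 8.39, 8.64 and 8.56 after YAP knockdown. No array of one group overlapped another, and the rise with AMOT lowered was 1.72 ± 0.12 (limma adjusted p = 1.3e-05). ZNF536 (chromosome 19, 30225592 to 30713586), a brain-expressed repressor of neuronal differentiation, gave 7.97, 7.94 and 7.93 in control cells, 9.67, 9.69 and 9.45 after AMOT knockdown and 8.88, 9.02 and 9.09 after YAP knockdown. Its rise of 1.65 ± 0.10 (limma adjusted p = 6.4e-06) was 2.02 by the gene's other tested probe. The next rises by size were ZNF789 (1.40, and 2.18 by its other probe), ZNF518B (1.24), ZNF274 (1.18), ZNF581 (1.14), ZNF84 (1.14) and ZNF33B (1.07), all called.

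ZNF326 (chromosome 1, 89995110 to 90035533), a subunit of the DBIRD complex that ties RNA polymerase II elongation to splicing, fell furthest. It stood at 9.32, 10.10 and 10.21 in control cells, 8.30, 8.0 and 7.84 after AMOT knockdown and 7.83, 7.68 and 7.76 after YAP knockdown. One control array was lower than the others, yet all controls lay above all knockdown arrays, and the mean was 3.55-fold lower with AMOT lowered (log2 change -1.83 ± 0.22, limma adjusted p = 0.00023). The other probe of ZNF326 gave -1.39. ZNF174 (chromosome 16, 3401215 to 3409364), a SCAN-domain zinc finger gene, stood at 9.05, 9.07 and 9.0 in control cells, 7.89, 7.49 and 7.07 after AMOT knockdown and 8.28, 8.24 and 8.12 after YAP knockdown. The fall of 1.55 on the log2 scale (log2 change -1.55 ± 0.18, limma adjusted p = 0.00016) was larger than the spread of the AMOT arrays. Of its 2 other probes, 1 gave -0.92 and was called and 1 gave -0.02 and was not (0.19, not called, with YAP lowered), so the probes of ZNF174 disagreed.

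ZNF185 (chromosome X, 152898067 to 152973481) encodes a LIM-domain protein of the actin cytoskeleton and not a C2H2 factor. Its levels were 9.06, 9.03 and 9.07 in control cells, 7.72, 7.66 and 7.75 after AMOT knockdown and 7.44, 8.0 and 7.64 after YAP knockdown. Both knockdowns lay below the controls, by -1.34 ± 0.13 with AMOT lowered (limma adjusted p = 8.2e-05). ZNF816 (chromosome 19, 52949385 to 52962881) gave 8.20, 8.54 and 8.28 in control cells, 6.99, 7.35 and 6.91 after AMOT knockdown and 7.94, 8.16 and 7.97 after YAP knockdown. Its YAP arrays lay just below the controls and its AMOT arrays far below. The AMOT change was -1.26 ± 0.14 (limma adjusted p = 0.00017), and the YAP value of -0.32 was not called (adjusted p = 0.11). The next falls were ZNF696 (-1.07), ZNF18 (-1.0), ZNF672 (-0.91), ZNF20 (-0.77), ZNF845 (-0.77) and ZNF697 (-0.74).

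**Figure D2:**
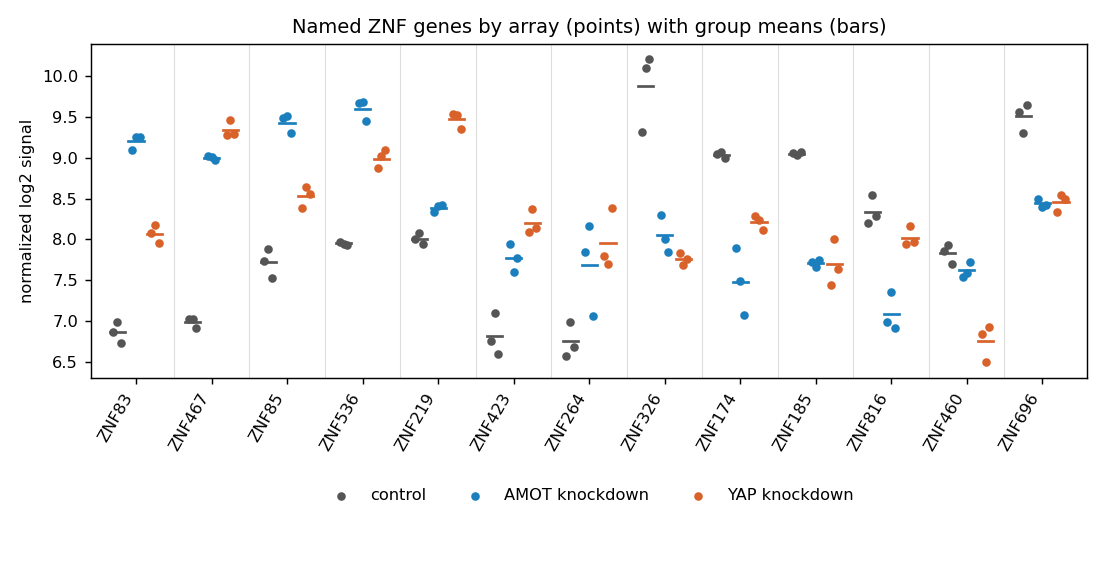
Normalized log2 signal of 13 ZNF genes with the largest rises and falls against control, by array (points) with group means (bars), in the controls (grey), AMOT knockdown (blue) and YAP knockdown (orange). ZNF83, ZNF467, ZNF85 and ZNF536 lie higher in both knockdowns than in the controls, ZNF326 and ZNF185 lie lower in both, and ZNF816 is lowest in the AMOT knockdown.

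When YAP was lowered, 59 of the 279 ZNF genes rose and 51 fell, or 21.1% and 18.3%, against 18.5% and 18.7% of all tested probes. Of named genes with the same detection on all 9 arrays, 23.5% were called higher and 21.9% lower, so both shares of the members lay below these. ZNF467, ZNF219, ZNF423 and ZNF264 rose most, and ZNF326, ZNF185, ZNF460 and ZNF696 fell most. The 110 genes called were 39.4% of the members, against 37.3% of all tested probes and 45.4% of named genes detected on all 9 arrays. Upward calls were 53.6% of the members' calls and 49.7% of all probes' calls. With the arrays scaled to a common median in place of a common distribution, 60 members were called higher and 20 lower, so that upward calls were 75% of the members' calls and 60.5% of all probes' calls. The balance of directions with YAP lowered thus depended on the scaling. The median change was 0.04, against -0.01 over all tested probes, and 156 members lay above 0. The groups did not overlap for 140 members, against 48.7% of all tested probes. A change of at least 2-fold was called upward for 8 members and downward for 4, against 4.28% and 2.41% of all tested probes. Both knockdowns were set against the same 3 control arrays, so a shared direction of a gene in both is not independent support.

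ZNF467 was 5.13-fold higher with YAP lowered (log2 change 2.36 ± 0.09, limma adjusted p = 4.9e-07), from the levels given above. ZNF219 (chromosome 14, 21090077 to 21104722), a partner of SOX9 in mouse cartilage, stood at 8.01, 8.08 and 7.94 in control cells, 8.33, 8.41 and 8.42 after AMOT knockdown and 9.54, 9.53 and 9.35 after YAP knockdown. The 3 groups did not overlap, and the YAP arrays stood apart, by 1.46 ± 0.10 (limma adjusted p = 8e-06) against 0.38 with AMOT lowered. ZNF423 (chromosome 16, 49487524 to 49859279), a cofactor of SMAD and EBF factors, gave 6.75, 7.10 and 6.59 in control cells, 7.94, 7.60 and 7.77 after AMOT knockdown and 8.09, 8.37 and 8.14 after YAP knockdown. All knockdown arrays were above the controls, by 1.39 ± 0.15 with YAP lowered (limma adjusted p = 0.00013). ZNF264 (chromosome 19, 57191500 to 57222846) gave 6.57, 6.99 and 6.68 in control cells, 7.84, 8.16 and 7.06 after AMOT knockdown and 7.80, 7.70 and 8.38 after YAP knockdown. Its knockdown arrays were scattered, and its rise of 1.22 had a standard error of 0.28 (limma adjusted p = 0.0073).

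ZNF326 fell by 2.12 on the log2 scale with YAP lowered (SE 0.22, 4.33-fold lower, limma adjusted p = 9.4e-05), and ZNF185 fell by 1.36 (SE 0.13). ZNF460 (chromosome 19, 57279982 to 57294069) gave 7.86, 7.93 and 7.70 in control cells, 7.54, 7.59 and 7.72 after AMOT knockdown and 6.84, 6.49 and 6.92 after YAP knockdown. Only its YAP arrays lay clear of the controls, by -1.08 ± 0.13 (limma adjusted p = 0.00021), and the AMOT value of -0.21 was not called. ZNF696 (chromosome 8, 143291417 to 143299952) gave 9.56, 9.31 and 9.65 in control cells, 8.5, 8.40 and 8.42 after AMOT knockdown and 8.34, 8.54 and 8.49 after YAP knockdown. The knockdowns overlapped each other and lay below the controls, by -1.05 ± 0.11 with YAP lowered (limma adjusted p = 0.00011). Further rises were those of ZNF83 (1.21), ZNF581 (1.06), ZNF84 (1.05), ZNF536 (1.05), ZNF493 (0.99) and ZNF594 (0.98). Further falls were those of ZNF30 (-0.99), ZNF24 (-0.98), ZNF235 (-0.94), ZNF226 (-0.94), ZNF174 (-0.82) and ZNF225 (-0.80).

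The direct comparison of the knockdowns asked which ZNF genes differed between the hairpin groups. Without a control hairpin, effects of the target, of the hairpin and of the unequal depth of the knockdowns cannot be told apart in this comparison. In it 42 members were higher with AMOT lowered and 17 were higher with YAP lowered, or 15.1% and 6.09%, against 8.61% and 8.84% of all tested probes. Of named genes detected on all 9 arrays, 10.4% were higher with AMOT lowered and 12.1% higher with YAP lowered. The 59 genes called were 21.1% of the members, against 17.4% of all tested probes and 22.5% of named genes detected on all 9 arrays. Of these calls 71.2% were higher in the AMOT knockdown, against 49.3% over all probes. Under median scaling 14 were called higher and 13 lower, so that 51.9% of the members' calls were higher in the AMOT knockdown, against 36.1% over all probes. The median difference was 0.05, against 0.00 over all probes. Under median scaling it was -0.04, against -0.08 over all probes, so the sign turned while the members stayed above the median of all probes. The groups did not overlap for 120 members, against 37.7% of all tested probes. A 2-fold difference was called for 3 members upward and 1 downward, against 1.05% and 1.01% of all tested probes. Leaving out 1 array moved these counts: the 42 higher genes were 27 without AMOT array 1 or without YAP array 2. The 17 lower genes were 9 to 11 when any AMOT array or YAP array 1 or 2 was left out.

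ZNF385B (chromosome 2, 179441982 to 179861612), a relative of the p53-binding protein ZNF385A, gave 7.82, 7.38 and 7.50 in control cells, 7.95, 8.18 and 8.05 after AMOT knockdown and 6.72, 7.17 and 6.87 after YAP knockdown. It was called higher with AMOT lowered (0.49) and lower with YAP lowered (-0.65), with 1.14 ± 0.15 between the knockdowns (limma adjusted p = 0.0011) and 1.38 by its other probe. ZNF239 (chromosome 10, 43556344 to 43574616), the lamin-binding protein MOK2, gave 10.46, 10.28 and 10.43 in control cells, 11.02, 11.25 and 11.17 after AMOT knockdown and 10.03, 10.14 and 10.04 after YAP knockdown. Its controls lay between the knockdowns without overlap, at 0.75 below the one and 0.32 above the other, and the knockdowns differed by 1.07 ± 0.10 (limma adjusted p = 0.00021). ZNF503, a repressor of the NET family, was likewise called higher with AMOT lowered (0.46) and lower with YAP lowered (-0.29). It differed by 0.75 between the knockdowns (limma adjusted p = 0.0012). ZNF385B, ZNF239 and ZNF503 were the 3 members with calls in opposite directions against the controls, and were singled out for that.

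ZNF83 differed by as much as ZNF385B (1.14 ± 0.11, limma adjusted p = 0.00022), but lay above the controls in both knockdowns. Other genes higher with AMOT lowered than with YAP lowered were ZNF480 (0.99), ZNF85 (0.91), ZNF460 (0.87), ZNF227 (0.85), ZNF616 (0.82), ZNF789 (0.81) and ZNF254 (0.81). ZNF219 had the largest difference the other way (-1.08 ± 0.10, limma adjusted p = 0.00014), followed by ZNF816 (-0.94), ZNF672 (-0.90), ZNF704 (-0.84), ZNF775 (-0.76), ZNF174 (-0.73), ZNF692 (-0.71), ZNF362 (-0.63), ZNF337 (-0.50) and ZNF333 (-0.49). ZNF672 and ZNF692, neighbours on chromosome 1 at 248838224 to 248849517 and 248850008 to 248859085, were both lower with AMOT lowered (-0.91 and -0.42). Neither was called with YAP lowered (-0.01 and 0.29). The call of ZNF616 between the knockdowns (limma adjusted p = 0.041) was lost without control array 2, AMOT array 1 or 3 or any 1 of the YAP arrays, at adjusted p of 0.053 to 0.13. The call of ZNF174 was lost without AMOT array 2 or YAP array 1 or 2, that of ZNF337 without AMOT array 1 or 3 or YAP array 1, and that of ZNF333 without any 1 of the knockdown arrays, at adjusted p of 0.055 to 0.087.

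**Figure D3:**
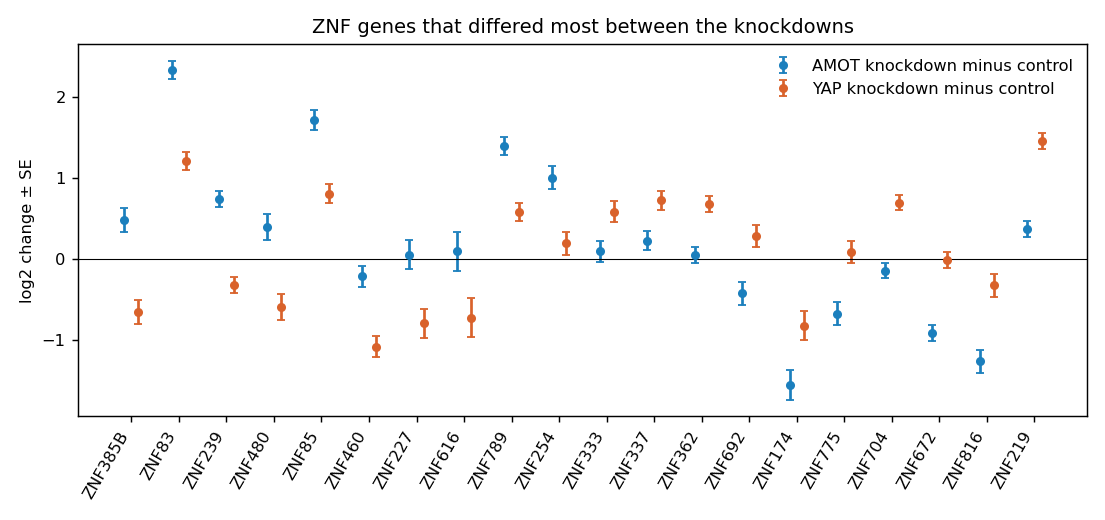
Log2 change against control, with standard error of the fit, of the 20 ZNF genes that differed most between the knockdowns, for AMOT knockdown (blue) and YAP knockdown (orange). ZNF385B and ZNF239 lie above 0 in blue and below 0 in orange, while ZNF83 lies above 0 in both.

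The role lists that follow are small and were drawn up with results of these data known, so their counts are descriptions. Of all tested probes, 17.6% were called higher and 17.5% lower with AMOT lowered, and 18.5% and 18.7% with YAP lowered. By role, 5 members were listed for development, among them ZNF467 and ZNF536, already described as large rises. The list is not a full set, and ZNF219, for example, was placed in the list for transcription and looping. With AMOT lowered all 5 rose (median 0.96, against -0.02 over all probes), and with YAP lowered 4 rose and ZNF503 fell (median 1.05, against -0.01). Beside ZNF467, ZNF536, ZNF423 and ZNF503, the list held ZNF521, a partner of EBF1, with 0.51 with AMOT lowered and 0.73 with YAP lowered. Markers of neurons moved in the same arrays: of 8, 7 were called higher with AMOT lowered and 8 with YAP lowered. Their summed raw signal was 2192 to 2661 in the controls, 3320 to 3838 in the AMOT knockdown and 9679 to 11111 in the YAP knockdown, and CHGB, SNAP25 and SCG3 were undetected on all control arrays. Neural genes counted above with the HEK293 markers were mixed. NEFM changed by -0.94 with AMOT lowered and 0.53 with YAP lowered, and INA by 0.78 and 1.36, all called. NEFL gave -0.22 and -0.04, neither called. The part of these markers in the changes of the ZNF genes was not tested.

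Of 9 members of chromatin complexes, 4 rose and none fell with AMOT lowered, and 3 rose and 1 fell with YAP lowered, against 17.6% higher and 17.5% lower and then 18.5% and 18.7% of all tested probes. The medians were 0.15 and 0.29. In this and the next lists, where none fell in limma's adjusted test, 0 also fell at an unadjusted p under 0.05. ZNF518B, a partner of the histone methyltransferase G9a, changed by 1.24 and 0.94, in this order of knockdowns, while its relative ZNF518A gave -0.03, not called, and -0.41, called. ZNF274, which brings the methyltransferase SETDB1 to the 3′ ends of ZNF genes, gave 9.88, 9.88 and 9.70 in control cells, 10.75, 11.20 and 11.04 after AMOT knockdown and 10.61, 10.48 and 10.44 after YAP knockdown. All its knockdown arrays lay above the controls, by 1.18 ± 0.13 and 0.69 ± 0.13 (limma adjusted p = 0.00013 and 0.0025), and its other probe gave 1.43 and 0.79. ZNF644, a partner of G9a and GLP, changed by 0.70 with AMOT lowered, and its 0.31 with YAP lowered was not called. Its other probe gave 0.38 and -0.33, neither of them called.

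Of 6 members listed for transposon control, 4 rose with AMOT lowered and 2 with YAP lowered, and none fell, against 17.6% and 18.5% of all tested probes called higher. The medians were 0.74 and 0.27. ZNF91, which silences SVA elements, changed by 0.76 and 0.91. ZNF10 (KOX1), the source of the KRAB domain used in gene silencing tools, changed by 0.93 with AMOT lowered and its 0.35 with YAP lowered was not called. ZNF33B gave 1.07 and 0.48. ZNF33A, its close paralog, gave 0.72, called, and 0.20, not called, and its other probe gave 0.45 and -0.18, neither called. The other probe of ZNF33B gave 1.13 and 0.78, both called. Cross-hybridisation between such paralogs was not examined, as probe sequences were not used here.

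Members that act on RNA, ribosomes or the spindle numbered 10, of which 2 rose and 3 fell in either knockdown. Over all tested probes, 17.6% were called higher and 17.5% lower with AMOT lowered, and 18.5% and 18.7% with YAP lowered. Between the knockdowns limma called 0 of these 10 members at an adjusted p under 0.05, against 17.4% of all tested probes. At an unadjusted p under 0.05, 1 member was higher and 2 were lower. Apart from ZNF326, ZNF207 (BuGZ), which loads BUB3 at the spindle, fell by 0.49 and 0.51, and ZNF346, a binder of double-stranded RNA, rose by 0.69 and 0.70. ZNF598, the ubiquitin ligase that marks collided ribosomes, rose by 0.36 and 0.53 by its main probe, while its other probe gave 0.03 and 0.23, neither called. Of 11 members listed for transcription and looping, 1 rose and 2 fell with AMOT lowered, and 3 rose and 3 fell with YAP lowered. ZNF24, a SCAN-domain factor, changed by -0.50 and -0.98, and ZNF281 by -0.31 and -0.37. ZNF143, an activator of small nuclear RNA genes that binds many promoters, gave 10.05, 9.63 and 9.94 in control cells, 10.13, 10.06 and 9.95 after AMOT knockdown and 9.52, 9.53 and 9.47 after YAP knockdown. Only the YAP arrays lay below the controls, by -0.37 ± 0.12 (limma adjusted p = 0.036). Of 3 members named for DNA damage and stress, ZNF668 fell by 0.67 and 0.66, and ZNF395 rose by 0.37 with YAP lowered only, with -0.02, not called, for AMOT.

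TRIM28, through which KRAB proteins act, was not called in either knockdown (-0.18 with AMOT lowered and -0.32 with YAP lowered). Of 24 tested genes of the KRAB silencing machinery, 4 rose and 2 fell with AMOT lowered and 7 rose and 3 fell with YAP lowered. Calls in either direction were 35.1% of all tested probes with AMOT lowered and 37.3% with YAP lowered. TASOR and MORC2, of the HUSH silencing system, changed by 0.74 and 0.84 with AMOT lowered and by 1.17 and 0.67 with YAP lowered. CBX3, the heterochromatin protein HP1 gamma, changed by -0.77 and -0.39. SETDB1 rose by 0.59 with YAP lowered, and its 0.22 with AMOT lowered was not called.

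Other C2H2 families moved in both directions too, as did all tested probes. Of these, 17.6% were called higher and 17.5% lower with AMOT lowered, and 18.5% and 18.7% with YAP lowered. With AMOT lowered 8 of 34 ZBTB genes rose and 5 fell, and with YAP lowered 11 rose and 5 fell. Of 12 ZSCAN genes, 4 rose and 2 fell with AMOT lowered and 5 rose and 3 fell with YAP lowered. Of 11 ZFP genes, without the CCCH gene ZFP36, 3 rose and 3 fell and then 3 rose and 2 fell. Of 6 ZKSCAN genes, 1 fell with AMOT lowered, and 1 rose and 1 fell with YAP lowered. KLF and SP factors, with 14 tested, gave 3 higher and 2 lower and then 4 higher and 2 lower. Of 9 architectural and conserved factors, 2 rose in each knockdown, and CTCF, YY1 and REST were not called. The 71 tested ZNF genes that missed the detection rule had calls at 22.5% with AMOT lowered (14 higher, 2 lower), at 25.4% with YAP lowered (13 higher, 5 lower) and at 4.23% between the knockdowns. All tested probes had calls at 35.1%, 37.3% and 17.4%, in this order. The rule also removed genes near background in 1 group, and its part in these directions was not tested.

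Probes of one gene did not always agree. In all, 72 members had 81 further tested probes. Of the 38 such pairs in which the main probe was called with AMOT lowered, 18 were called by both probes, 17 of them in the same direction. With YAP lowered 34 pairs had a called main probe, 21 were called by both, and 20 of these had the same direction. The exceptions were ZNF37A, with 0.58 by the main and -0.45 by the other probe with AMOT lowered, and ZNF549, with 0.77 and -0.46 with YAP lowered.

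On chromosome 19, 27 of the 114 members rose and 25 fell when YAP was lowered (45.6% called), and of 604 tested chromosome 19 genes that are no ZNF gene 178 rose and 82 fell. With AMOT lowered 27 of the 114 rose and 15 fell (36.8%), and between the knockdowns 22 were higher and 7 lower with AMOT lowered (25.4%). Of the other chromosome 19 genes 33 were higher and 79 lower in that last comparison. The difference in balance between the ZNF genes and the other genes of the chromosome was not tested. Of all tested probes, 37.3% were called with YAP lowered, 35.1% with AMOT lowered and 17.4% between the knockdowns. Among named genes detected on all 9 arrays these shares were 45.4%, 41.5% and 22.5%, so the 45.6% with YAP lowered was near that of well-detected genes. Of the 165 members on other chromosomes, 42 rose and 23 fell with AMOT lowered, 32 rose and 26 fell with YAP lowered, and 20 were higher and 10 lower between the knockdowns (18.2%).

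Zinc finger genes of chromosome 19 less than 1000000 bases apart were joined into clusters, a grouping chosen after the values were seen, and 7 clusters held at least 5 members, with 8 to 28 each. Counts within them are descriptions. Over all tested probes, 17.6% were called higher and 17.5% lower with AMOT lowered, and 18.5% and 18.7% with YAP lowered. The clusters at 7069703 to 9786160 and at 11483429 to 12633834, with 8 and 12 members, had calls in both directions in each knockdown. In the cluster at 19668153 to 24129968, with 13 members, 5 rose and none fell with AMOT lowered (median 0.50), among them ZNF85, ZNF254, ZNF91 and ZNF493, and 4 rose and none fell with YAP lowered (median 0.36). In the cluster at 51571283 to 53580269, with 18 members, 2 members rose and 5 fell with AMOT lowered and 2 rose and 7 fell with YAP lowered, and ZNF83 was the largest rise in each. In the cluster at 55476617 to 58489533, with 28 members, 9 rose and 1 fell with AMOT lowered, and 10 rose and 5 fell with YAP lowered. In the cluster at 36182060 to 37779586, with 8 members, ZNF529 and ZNF567 rose with AMOT lowered and with YAP lowered limma called 0 members, with 1 lower at an unadjusted p under 0.05. Of the 5 other chromosomes with at least 10 members, chromosome 10 had the highest share of rises with AMOT lowered and was chosen for that after the values were seen. There 9 of the 12 members rose and none fell (median 0.53), and with YAP lowered 4 rose and 3 fell. The 450 tested genes of chromosome 10 that are no ZNF gene leaned the same way with AMOT lowered, with 164 higher and 34 lower (36.4% and 7.56%, median 0.23), against 17.6% and 17.5% of all tested probes. With YAP lowered 119 of them were higher and 87 lower (median 0.09). The difference between the ZNF genes and the other genes of chromosome 10 was not tested.

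**Figure D4:**
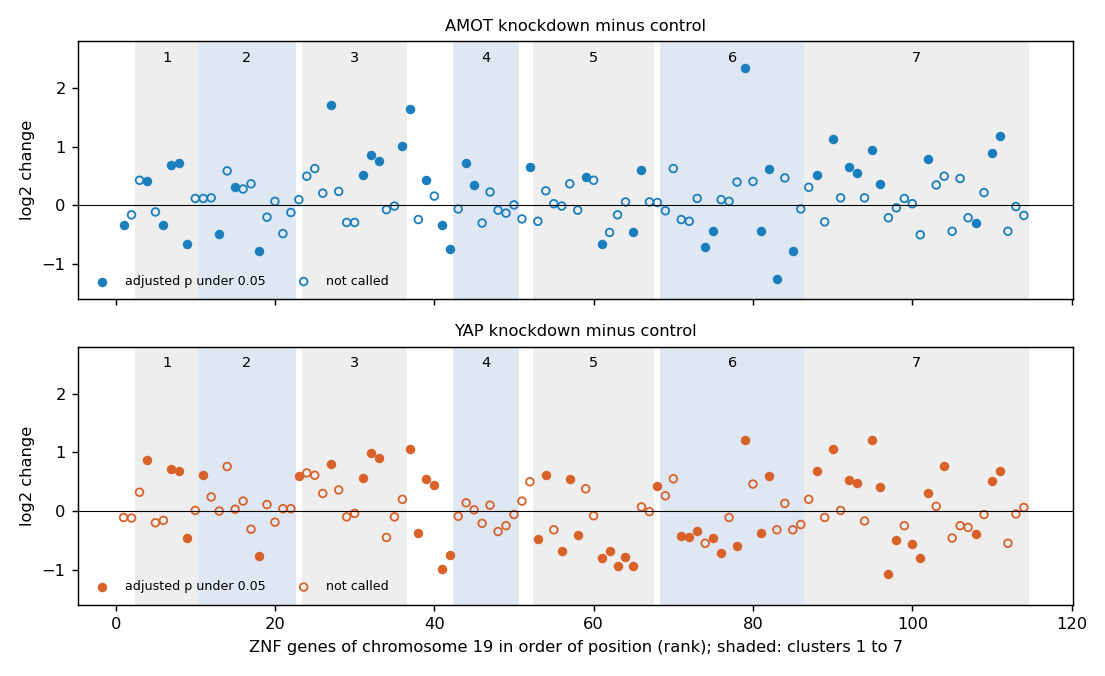
Log2 change against control of the 114 ZNF genes of chromosome 19 in order of position, for AMOT knockdown (top) and YAP knockdown (bottom), with filled points for an adjusted p under 0.05 and shading for clusters 1 to 7. In cluster 5 of the lower panel 8 filled points lie below 0 and 2 above.

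The fifth cluster, at 43530835 to 45076478, held 15 members, of which 8 fell and 2 rose with YAP lowered (median -0.41), whereas 2 rose and 2 fell with AMOT lowered (median 0.03). Its 12 tested genes of other families had 5 higher and 2 lower with YAP lowered (median 0.21). Between the knockdowns 6 of the 15 members were higher and 1 lower with AMOT lowered (median 0.33). Over all tested probes, 18.5% were called higher and 18.7% lower with YAP lowered, and 17.6% and 17.5% with AMOT lowered. Between the knockdowns these shares were 8.61% and 8.84%. Under median scaling 5 members of the cluster were lower with YAP lowered, and leaving out 1 array gave 6 to 8. The promoters of ZNF235, ZNF226, ZNF225 and ZNF227, the 4 largest of the 8 falls, are shown because each holds one string. They are 300 bases each, from 250 before a transcript start to 50 after it, as the RefSeq table gives them for GRCh38.p14. For ZNF225 and ZNF227 that start lies inside the gene's span given below. The sequences are read 5′ to 3′ on the gene's strand, with the string TTCTGGGAA in capitals.

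ZNF225 promoter, chr19:44113149-44113448, plus strand: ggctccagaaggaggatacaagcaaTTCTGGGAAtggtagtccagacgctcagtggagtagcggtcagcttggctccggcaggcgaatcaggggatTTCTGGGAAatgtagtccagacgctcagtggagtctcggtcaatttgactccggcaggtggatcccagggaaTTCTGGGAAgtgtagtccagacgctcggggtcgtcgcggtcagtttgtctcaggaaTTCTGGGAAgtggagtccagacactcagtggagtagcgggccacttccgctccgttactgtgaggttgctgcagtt
ZNF226 promoter, chr19:44164850-44165149, plus strand: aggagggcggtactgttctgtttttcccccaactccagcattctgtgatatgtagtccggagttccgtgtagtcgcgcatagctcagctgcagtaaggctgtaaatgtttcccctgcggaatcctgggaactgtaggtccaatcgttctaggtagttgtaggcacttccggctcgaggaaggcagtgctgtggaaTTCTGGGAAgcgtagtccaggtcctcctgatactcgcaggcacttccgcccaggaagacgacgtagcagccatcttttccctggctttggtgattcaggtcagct
ZNF227 promoter, chr19:44212282-44212581, plus strand: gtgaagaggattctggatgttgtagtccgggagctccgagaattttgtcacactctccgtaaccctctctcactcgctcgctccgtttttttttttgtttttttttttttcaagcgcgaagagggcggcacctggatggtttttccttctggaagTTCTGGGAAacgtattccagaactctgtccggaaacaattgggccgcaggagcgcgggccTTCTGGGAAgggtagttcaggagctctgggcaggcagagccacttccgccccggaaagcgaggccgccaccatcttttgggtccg
ZNF235 promoter, chr19:44304976-44305275, minus strand: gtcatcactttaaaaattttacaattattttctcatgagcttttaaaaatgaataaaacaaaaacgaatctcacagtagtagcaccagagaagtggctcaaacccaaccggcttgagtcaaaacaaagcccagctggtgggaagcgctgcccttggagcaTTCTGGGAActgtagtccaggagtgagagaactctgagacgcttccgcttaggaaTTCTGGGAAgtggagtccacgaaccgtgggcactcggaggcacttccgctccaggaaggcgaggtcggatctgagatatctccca

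The string stood 4 times in the ZNF225 promoter, once in that of ZNF226 and 2 times in each of those of ZNF227 and ZNF235. It was chosen after these promoters were read, and its reverse complement TTCCCAGAA is part of the recognition motif known for ZNF143. On either strand the string was found in 62.5% of 16 promoters of the cluster's members (9 of 13 genes), in 66.7% of 9 promoters of the 8 genes that fell (6 genes), in 11.4% of promoters of all chromosome 19 members, in 2.65% of those of members elsewhere and in 1.03% of all 35116 promoters of the table. The genes that fell thus held it about as often as the cluster's members as a whole. The share for chromosome 19 members includes this cluster, which held 10 of their 14 promoters with the string, among 123. CACTTCC, which reads on the other strand as GGAAGTG, was likewise chosen after the promoters were read. It shares the letters GGAA with the first string and overlaps it where that string is followed by GTG, as in the promoters of ZNF225 and ZNF235. In those of ZNF226 and ZNF227 the strings stand apart, and ZNF225 and ZNF235 also hold CACTTCC apart from the first string. CACTTCC was found in 68.8% of the cluster's promoters, 23.4% of all members' and 11.2% of all promoters. GGAATG, which reads on the other strand as CATTCC and is the core bound by TEAD factors, was found in 14.4% of the 312 member promoters, of 240 genes matched, and in 14% of all promoters. In the cluster GGAATG was found in 25% of the 16 promoters (4 genes) and in 33.3% of the 9 promoters of the genes that fell (3 genes), which are small counts. Among promoters of all members called lower with YAP lowered the share was 10.9%. These matches are descriptions of letters, not of binding.

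ZNF226 (44165100 to 44199490) showed the clearest fall. It gave 9.14, 9.05 and 9.29 in control cells, 9.01, 9.01 and 8.99 after AMOT knockdown and 8.22, 8.27 and 8.19 after YAP knockdown. Its AMOT arrays lay just under the controls and its YAP arrays far below, by -0.94 ± 0.09 (limma adjusted p = 7.1e-05), and its other probe gave -1.09. ZNF227 (44207547 to 44237268) gave 8.87, 8.52 and 8.57 in control cells, 8.94, 8.56 and 8.63 after AMOT knockdown and 7.93, 8.14 and 7.52 after YAP knockdown. Controls and AMOT arrays overlapped, and the YAP arrays lay below both (-0.79 ± 0.18, limma adjusted p = 0.0067). ZNF45 (43912624 to 43935282) gave 8.95, 9.03 and 8.91 in control cells, 8.98, 8.91 and 8.96 after AMOT knockdown and 8.02, 8.47 and 8.36 after YAP knockdown. It showed the same order (-0.68 ± 0.12, limma adjusted p = 0.002), and its promoter held no TTCTGGGAA.

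ZNF235 (44286348 to 44305025) gave 7.76, 7.77 and 7.62 in control cells, 7.29, 7.39 and 7.12 after AMOT knockdown and 7.06, 6.50 and 6.78 after YAP knockdown. It was called lower in both knockdowns (-0.45 and -0.94) and lower with YAP than with AMOT lowered (0.49 ± 0.15, limma adjusted p = 0.045). ZNF225 (44111425 to 44134822) gave 8.11, 7.55 and 7.74 in control cells, 7.15, 7.22 and 7.04 after AMOT knockdown and 7.09, 7.11 and 6.78 after YAP knockdown. It fell in both knockdowns (-0.66 and -0.80), which did not differ by the test (0.14 ± 0.15, limma adjusted p = 0.60). The remaining falls with YAP lowered were ZNF576 (-0.47), ZNF222 (-0.41) and ZNF234 (-0.68). The arrays of ZNF234 overlapped between groups, and its other probe gave -0.46 and was not called. ZNF428 (0.61) and ZNF155 (0.54) rose with YAP lowered, but the other probe of ZNF155 gave -0.02 and was not called. ZNF112 rose with AMOT lowered (0.60) and gave 0.07, not called, with YAP lowered.

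**Figure D5:**
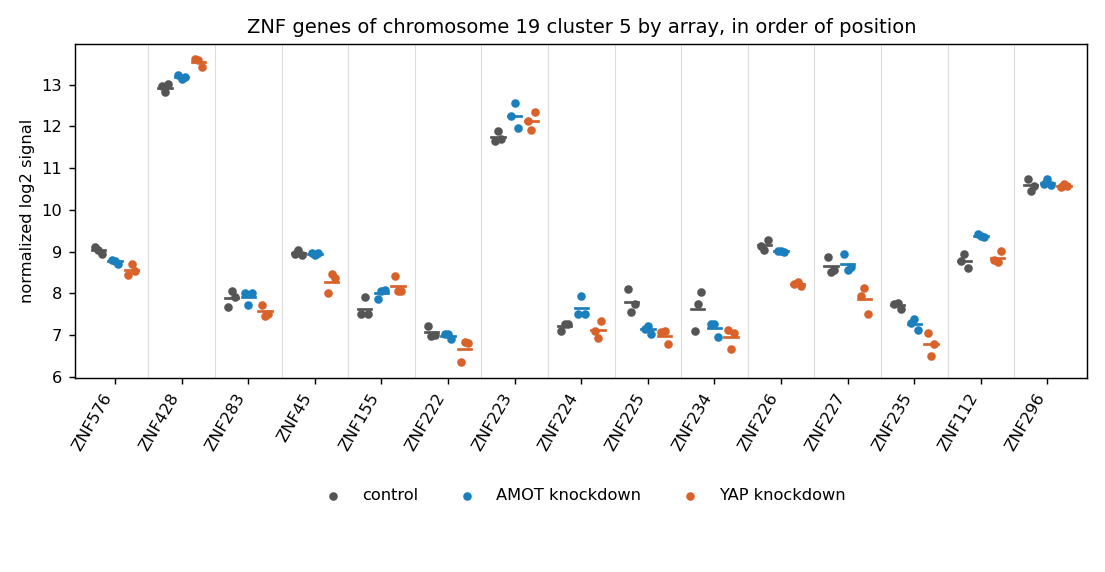
Normalized log2 signal of the 15 ZNF genes of the fifth chromosome 19 cluster by array (points) with group means (bars), in the controls (grey), AMOT knockdown (blue) and YAP knockdown (orange). ZNF45, ZNF226 and ZNF227 lie well below the controls in orange, with blue overlapping the controls or, for ZNF226, just under them. ZNF225 and ZNF235 lie lower in both knockdowns, and ZNF112 lies higher in blue only.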

How the data were processed

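Total RNA of 9 HEK293 cultures, 3 per group, was biotinylated and hybridised to Illumina bead arrays. The deposited table gives bead-summarised intensity on a linear scale for 47231 probes, neither background-corrected nor normalized as far as its values show, and per the file headers a detection p-value beside each. The authors' series matrix holds 20062 of these probes as normalized intensity, with the method not given in the sources used here. Within each array it ranks probes like the first table (rank correlation 1, across probes), its column medians were 548 to 549, and it served as an alternative; whether it was centred otherwise is not known. The number of arrays limits the precision, and p-values measure the spread between these cultures.

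Signals were processed with limma 3.58.1 in R 4.3.3: normal-exponential background from the detection p-values, offset 16, quantile normalization, log2. The 22375 probes with detection p under 0.05 on at least 3 arrays were fitted in one model with a mean per group (6 residual and 3.53 prior degrees of freedom), with 2-sided moderated tests and Benjamini-Hochberg adjustment within each contrast at 0.05. The fit was tested on simulated data. Quantile normalization makes changes relative to all measured transcripts. Symbols came from the platform annotation (15467 probes with 1 symbol, 4 with several; 4591 of the matrix had no entry; 7114 tested probes stayed unnamed), and positions from RefSeq genes of GRCh38.p14. Slide numbers: not given in the sources used here.

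Genes were named as the 10 largest called rises and falls of each contrast and, from role lists, the largest changes; genes named outside this rule are said to be so or belong to chromosome 19 clusters described after values were seen. The members and lists were chosen with earlier results of these data known. Alternatives were median scaling, cyclic loess, no background correction, offset 50, the series matrix, no filter and a stricter filter on dim probes, 2-group fits, a replicate block, a mean over a gene's probes, and leaving out each array. A split by protein domain was not run, as protein sequences were not used here.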

Additional observations from a re-analysis of the deposited data

Results flagged for a closer look

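For 39 of 90 ZNF genes looked at, limma's test of the difference between the knockdowns gave an adjusted p under 0.05. The 90 were drawn from the genes named above, the role lists and the fifth cluster. They include the 10 largest called differences in each direction of this same test, so the count is a description. The test called 17.4% of all tested probes and 22.5% of named genes detected on all 9 arrays. For the 39 genes the change against control was thus not the same with AMOT and with YAP lowered. Values are log2 differences, AMOT knockdown minus YAP knockdown, from 3 arrays per group.

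Higher with AMOT lowered were ZNF83 (1.14), ZNF385B (1.14), ZNF239 (1.07), ZNF480 (0.99), ZNF85 (0.91), ZNF460 (0.87), ZNF227 (0.85), ZNF616 (0.82), ZNF789 (0.81), ZNF254 (0.81), ZNF226 (0.78), ZNF503 (0.75), ZNF45 (0.66), ZNF30 (0.65), ZNF536 (0.61), ZNF33B (0.59), ZNF529 (0.59), ZNF10 (0.58), ZNF143 (0.54), ZNF112 (0.52), ZNF224 (0.51), ZNF274 (0.49), ZNF235 (0.49), ZNF518A (0.39), ZNF644 (0.39) and ZNF567 (0.33). Lower with AMOT lowered were ZNF467 (-0.34), ZNF428 (-0.36), ZNF395 (-0.39), ZNF333 (-0.49), ZNF337 (-0.50), ZNF362 (-0.63), ZNF692 (-0.71), ZNF174 (-0.73), ZNF775 (-0.76), ZNF704 (-0.84), ZNF672 (-0.90), ZNF816 (-0.94) and ZNF219 (-1.08). ZNF30 at 8.41, 8.17 and 8.28 with YAP lowered, against 9.26, 9.32 and 9.24 in the controls and 8.85, 8.86 and 9.11 with AMOT lowered, is an example in which both knockdowns lay below the controls by different amounts. ZNF704, at 9.41, 9.44 and 9.37 with YAP lowered against 8.70, 8.67 and 8.75 in the controls and 8.61, 8.59 and 8.49 with AMOT lowered, lay above the controls only in the YAP arrays.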

How the results depend on the processing

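The alternatives gave 1197 values of 63 results, for single genes (AMOT and YAP1 among them) and for the fifth cluster, and 1172 values stayed the same. For a gene, same means the same direction and side of the threshold. For the cluster it means a count of falls near that of the main fit. Further, 24 values kept their direction but lost the threshold (ZNF616, ZNF174, ZNF337 and ZNF333, all between the knockdowns), and 0 reversed. The cluster's count of falls moved to 5 under median scaling. Median scaling gave 19 AMOT knockdown falls, 20 YAP knockdown falls with a median change of 0.15 (all probes 0.05), 14 genes higher with AMOT than with YAP lowered with a median of -0.04 (all probes -0.08), and 2390 probes called between the knockdowns in place of 3904. It shifted all probes too: upward calls of all probes were 60.5% for YAP and 36.1% between the knockdowns. Without the filter on dim probes AMOT knockdown falls were 25, and cyclic loess gave a median AMOT change of 0.14. Leaving out 1 array gave 51 to 69 AMOT rises, 23 to 34 AMOT falls, 46 to 64 YAP rises and 36 to 48 YAP falls. Between the knockdowns it gave 27 to 42 higher, 9 to 19 lower and 2475 to 3972 of all probes, the last lowest without YAP array 1 (2475), AMOT array 1 (2507) or YAP array 2 (2573). The cause was not tested. The replicate block, with same-numbered arrays correlating at -0.13 to 0.10 after removal of group means, gave 62 rises and 33 falls for AMOT, 56 and 46 for YAP and 34 and 14 between the knockdowns. Dim probes limit small changes: the offset draws them towards 0.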

Other observations

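Among zinc finger genes outside the ZNF symbols, chosen here after their values were seen, ZSCAN5A moved in opposite directions. It gave 6.97, 7.42 and 6.96 in the controls, 8.20, 8.37 and 8.02 with AMOT lowered and 6.0, 6.32 and 5.66 with YAP lowered, without overlap, and the knockdowns differed by 2.21 ± 0.19 in log2 units (standard error; limma adjusted p = 0.00013). KLF9, a factor induced by steroid and thyroid hormones, was 12.03, 12.15 and 12.03 in the controls, 10.98, 11.07 and 11.13 with AMOT lowered and 11.93, 12.20 and 11.93 with YAP lowered, so only the AMOT arrays lay apart (-1.01 ± 0.11, limma adjusted p = 0.00011). ZBTB20, a repressor of brain and liver, changed by 1.20 with AMOT lowered and by 1.75 with YAP lowered. ZSCAN18 changed by 1.24 and 1.17. The main probe of ZNF549, with levels of 13.27 to 14.74, and its other probe, at 6.18 to 6.86, were called in opposite directions with YAP lowered.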
